A study of Mus musculus with 6 samples.

Results

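Adar, Adarb1 and Adarb2, the genes of the ADAR family of RNA editing enzymes, were measured by RNA sequencing in the hippocampus of aged and young mice. The members were taken by gene name from the deposited table, and 3 of its 16703 genes are members. The libraries were of 3 aged (20-month-old) and 3 young (3-month-old) male C57BL/6 mice, an inbred strain, with poly(A)-selected RNA of 1 mouse in each library. The mice of each age were chosen from an earlier qPCR experiment by a criterion not given in the sources used here, so the libraries are not known to be an unselected draw of mice. The paper reports qPCR of Neat1, C4b, Trem2 and Cldn2 in aged and young hippocampus, and whether the choice used these genes is not stated. Trem2 and Cldn2 are among the cell type markers counted below. The study was made to follow another RNA modification, N6-methyladenosine, through ageing. The comparison given here asks whether the RNA of the 3 members differed in amount between the ages. Editing itself, the share of inosine at a site, was not analysed here.

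ADAR enzymes bind double-stranded RNA and remove an amino group from adenosine, which turns it into inosine, a base that is read as guanosine. Adar encodes ADAR1, which edits mainly repeats in untranslated regions and introns and keeps the cell's own double-stranded RNA from being sensed as viral. Adarb1 encodes ADAR2, which recodes neuronal receptor RNAs, above all the glutamine codon of the AMPA receptor subunit Gria2 that sets the calcium permeability of the channel. Adarb2 encodes ADAR3, a protein found largely in brain for which no editing activity has been shown and which can compete with the other enzymes for RNA.

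The members share a deaminase domain whose active site holds the residues histidine, alanine and glutamate, with the glutamate taking part in proton transfer. The coding sequence around this motif is shown to mark what is alike among the members and what differs, with the codons of the 3 residues in capitals. It was read from the GENCODE M21 transcripts of GRCm38, where Adar lies on the plus strand of chromosome 3, Adarb1 on the minus strand of chromosome 10 and Adarb2 on the plus strand of chromosome 13.
Adar: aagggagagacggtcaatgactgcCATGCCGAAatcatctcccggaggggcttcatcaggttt
Adarb1: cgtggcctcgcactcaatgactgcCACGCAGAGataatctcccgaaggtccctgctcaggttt
Adarb2: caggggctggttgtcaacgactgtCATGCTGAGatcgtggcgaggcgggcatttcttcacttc
The motif begins at codon 859 of Adar, codon 394 of Adarb1 and codon 438 of Adarb2. Adar and Adarb1 had the same base at 43 of the 63 positions, Adar and Adarb2 at 37, and Adarb1 and Adarb2 at 35. These counts cover this window alone and do not rank the members over their whole coding sequences. The windows were placed by a search of the translated sequence for cysteine, histidine, alanine and glutamate in a row, so each window holds these codons by design. The search had 1 match in each member, Adarb2 included.

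The values are CPM, adjusted counts scaled to a common library total, since the authors had removed a factor of unwanted variation before the deposit. The extended methods give a range of read totals for the sequencing, but the depth of each library is unknown. The adjusted counts summed to 15904809 to 17548247 in the aged libraries and to 15238190 to 15393656 in the young libraries. The mean squared difference between aged replicates 2 and 3 came to 0.552 times the counting noise over 6473 genes of 50 to 500 adjusted counts, against 1.41 to 2.98 times in the other pairs of replicates, and the removed factor weighed most on these libraries. They were kept as separate samples, since Ttr, a choroid plexus gene, stood at 252.4 CPM in aged replicate 2 and 491.4 CPM in aged replicate 3. All 16 choroid plexus markers had negative log2 fold changes and 12 were lower in the aged libraries (limma, FDR 0.05), and the marker sums of 685.9 to 3305 CPM in the aged libraries lay below the 3496 to 4030 CPM of the young libraries. Aged replicate 1 had the highest sum of its group. The count of 12 rested on single libraries, as it was 0 without aged replicate 3 (median log2 fold change -0.42, against -1.61 with all libraries), 2 without young replicate 1, 6 without aged replicate 2 and 16 without aged replicate 1, and 7 when the removed factor was not a term of the fit. At FDR 0.05 a share of 1.2% of all genes passed as higher in aged mice and 0.784% as lower, and 27.2% had values that did not overlap between the ages. Fewer cells of a type and less RNA per cell cannot be told apart in such bulk samples.

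Adar had 188.0, 204.2 and 199.3 CPM in the aged libraries, against 198.9, 198.2 and 195.9 CPM in the young libraries. The lowest and the highest of the 6 values were both of aged mice, so the groups overlapped. The mean was 197.2 ± 8.33 CPM in aged mice and 197.7 ± 1.56 CPM in young mice (SD, n = 3 each). The log2 fold change, aged over young, was -0.0044 (SE 0.046), with an adjusted p of 0.976 in limma over all 16703 genes and an exact two-sided permutation p of 1. Its 95% interval ran between folds of 0.932 and 1.07, so that a 1.5-fold difference in either direction lay outside it. Only 2.45% of all genes had a fold change nearer to 0 than that of Adar.

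Adarb1 had 178.9, 195.2 and 187.8 CPM in the aged libraries and 183.0, 182.7 and 200.1 CPM in the young libraries. Young replicate 3 was the highest of all, aged replicate 1 the lowest, and the groups overlapped over most of their range. The mean was 187.3 ± 8.19 CPM in aged mice and 188.6 ± 9.97 CPM in young mice (SD, n = 3 each). The log2 fold change was -0.0093 (SE 0.051), with an adjusted p of 0.954 in limma and an exact permutation p of 1. The 95% interval was 0.921 to 1.07 as a fold. Replicates scattered more than for most genes of like abundance, since the pooled SD of 0.069 on the log2 scale was larger than that of 80.4% of the 2084 genes within a factor of 2 of its level.

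Adarb2, the least abundant member, had 23.01, 25.99 and 25.64 CPM in the aged libraries, against 22.84, 24.49 and 23.06 CPM in the young libraries. Aged replicates 2 and 3 stood above every young library, while aged replicate 1 lay within the young range. The mean was 24.9 ± 1.63 CPM in aged mice and 23.5 ± 0.897 CPM in young mice (SD, n = 3 each). The log2 fold change of 0.083 (SE 0.086) did not pass the test (adjusted p = 0.714 in limma, exact permutation p = 0.3). The 95% interval of 0.933 to 1.202 as a fold was the widest of the 3 members and also left out a 1.5-fold difference.

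**Figure D1:**
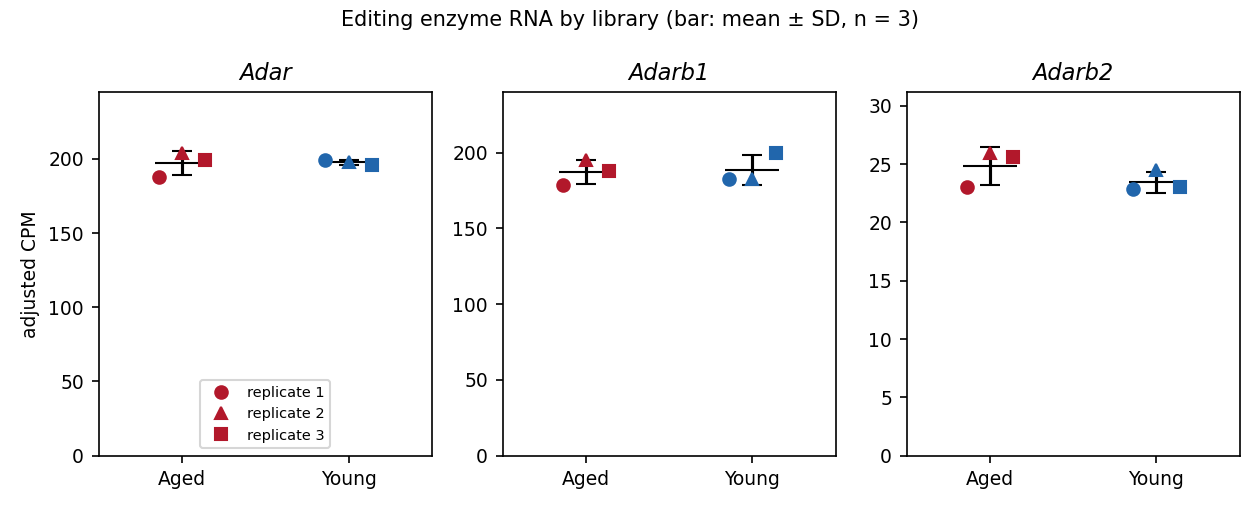
Adjusted CPM (vertical axes from 0) of Adar, Adarb1 and Adarb2 in each library, with aged mice at the left and young mice at the right of each panel, a symbol for each replicate and bars for the mean ± SD (n = 3). The aged and young values overlap in every panel, at about 188 to 204 CPM for Adar and 22.84 to 25.99 CPM for Adarb2.

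Thus 0 of the 3 members passed FDR 0.05 in limma and 0 of 3 had an unadjusted p under 0.05. Over all 16703 genes, 2485 had an unadjusted p under 0.05 in limma, a share to set beside the list counts below. None of the 3 had values that separated the ages, while 27.2% of all genes did. With 3 mice against 3, the exact permutation test cannot give a p under 0.1. The interval of each member excludes larger differences but leaves room for smaller ones, so that the widest of them still holds a rise of Adarb2 in the aged mice to 1.202-fold.

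**Figure D2:**
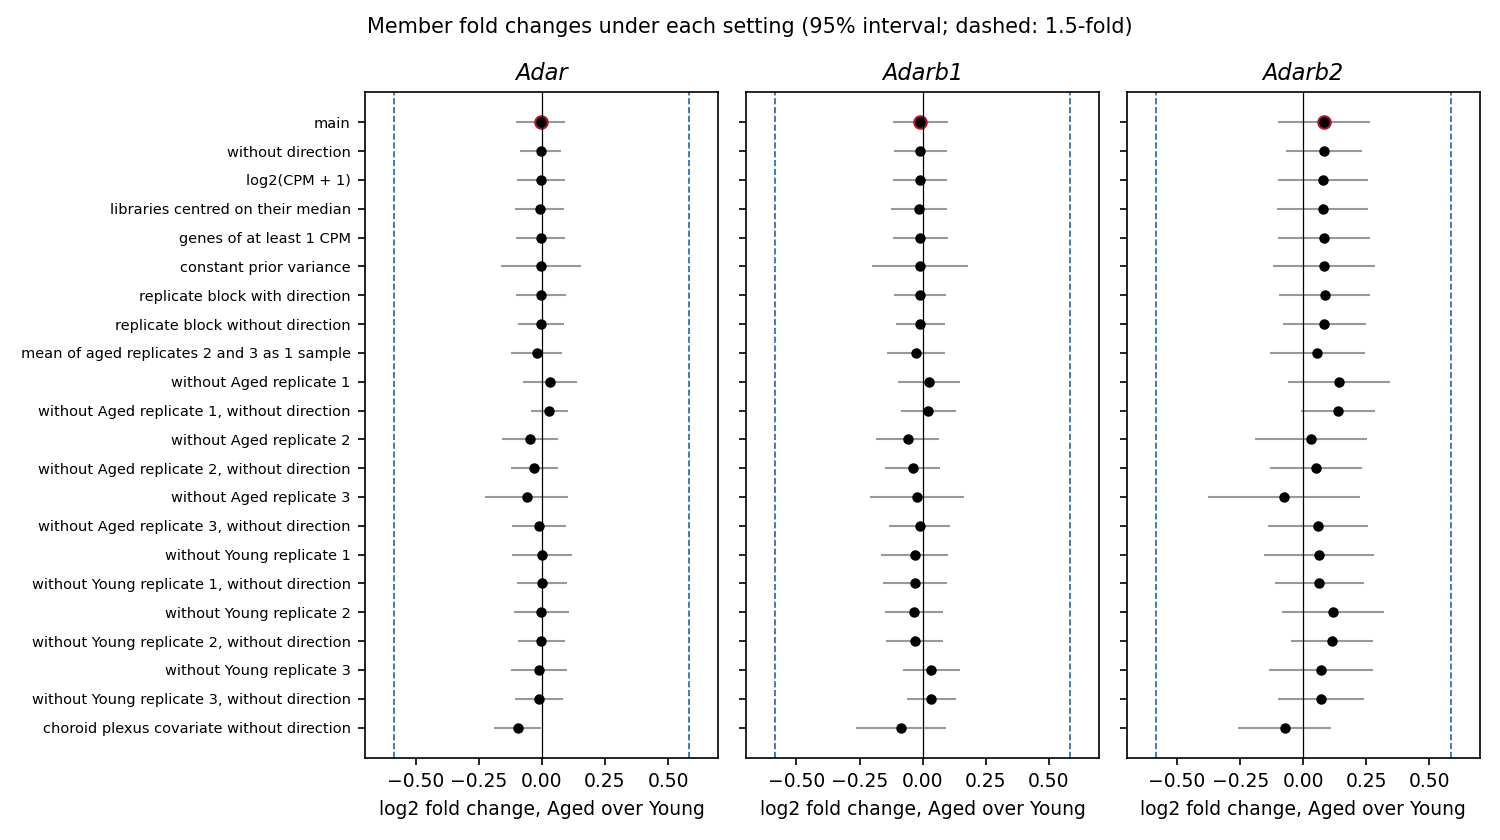
Log2 fold change, aged over young (horizontal axis), of each member under the main setting, ringed in red, and under 21 other settings listed down the page, with 95% intervals as grey lines and 1.5-fold marked by dashed lines. No interval reaches a dashed line, and the estimates lie between -0.0969 and 0.032 for Adar, between -0.0869 and 0.034 for Adarb1 and between -0.0757 and 0.142 for Adarb2.

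Adar shares 1365 bases, 16.8% of its annotated exon, with Chrnb2, a nicotinic acetylcholine receptor subunit gene on the opposite strand. Chrnb2 had 74.1, 84.4 and 80.0 CPM in the aged libraries and 72.1, 71.2 and 78.9 CPM in the young libraries, with a log2 fold change of 0.10 and an adjusted p of 0.50 in limma. The library kit marks strand, but whether strand was used in counting is not given in the sources used here, and if it was not, reads of the 2 genes cannot be told apart over the shared bases. The genes that overlap Adarb2 share no exonic base with it and are not among the measured genes.

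To compare the members with each other, CPM was divided by the length of annotated exon, which is 8.12 kb for Adar, 11.3 kb for Adarb1 and 13.1 kb for Adarb2. On this scale Adar stood at 24.3 ± 1.03 CPM per kb in aged mice and 24.4 ± 0.192 CPM per kb in young mice (SD, n = 3 each). Adarb1 stood at 16.6 ± 0.727 CPM per kb in aged mice and 16.7 ± 0.885 CPM per kb in young mice. Adarb2 stood at 1.90 ± 0.124 CPM per kb in aged mice and 1.79 ± 0.0684 CPM per kb in young mice. The order Adar, Adarb1, Adarb2 held in 6 of 6 libraries, and no neighbours in it overlapped. Without the division by length Adar was above Adarb1 in 5 of 6 libraries, young replicate 3 being the exception. The length counts every annotated exon of a gene, whichever of its transcripts were present, and is the same for every library. Most of the gap between Adar and Adarb1 came from it. Their log2 ratio was 0.072 before the division and 0.545 after it in aged replicate 1, and -0.030 and 0.443 in young replicate 3.

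**Figure D3:**
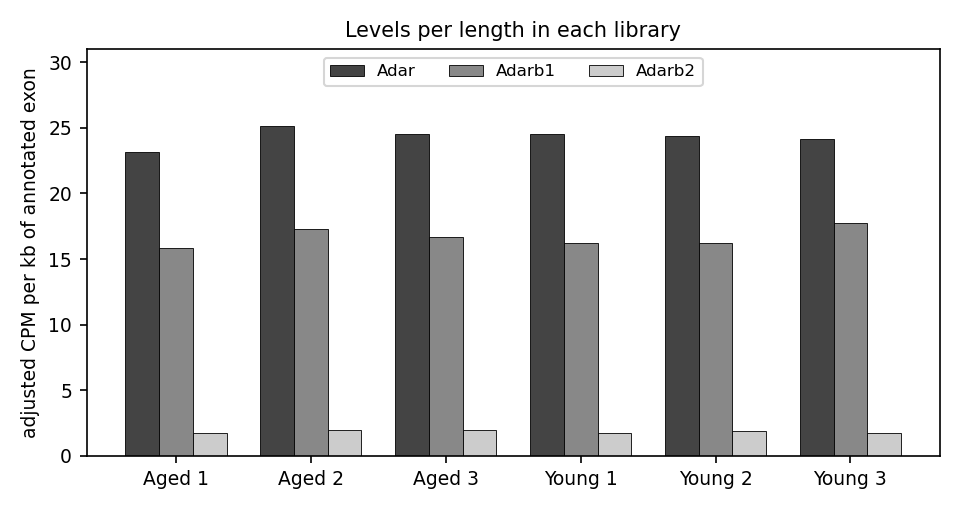
Adjusted CPM per kb of annotated exon (vertical axis from 0) in each of the 6 libraries, aged at the left, with a bar for each member. Adar is the tallest bar in every library and Adarb2, at about 1.7 to 2.0 CPM per kb, the shortest.

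Of the summed level of the members per kb, Adar took 56.8, 56.6 and 56.9% in the aged libraries and 57.7, 57.5 and 55.3% in the young libraries. Adarb1 took 38.9, 39.0 and 38.6% in the aged libraries and 38.2, 38.2 and 40.7% in the young libraries. Adarb2 took 4.30, 4.46 and 4.53% in the aged libraries and 4.10, 4.40 and 4.03% in the young libraries. Over all 6 libraries the share of Adar ran from 55.29 to 57.68%, with young replicate 3 at the low end.

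The ratios of the members to each other were compared as 3 pairs, with exact two-sided permutation tests adjusted over the pairs. The log2 ratio of Adar to Adarb1 was 0.072, 0.065 and 0.086 in the aged libraries, against 0.120, 0.118 and -0.030 in the young libraries, and did not differ beyond that spread (difference 0.0048, exact permutation p = 1). The log2 ratio of Adar to Adarb2 was 2.98 ± 0.037 in aged mice and 3.07 ± 0.054 in young mice (SD, n = 3 each), a difference of -0.087 with an exact permutation p of 0.2 and an adjusted p of 0.45. For Adarb1 to Adarb2 the ratio was 2.91 in aged mice and 3.00 in young mice, a difference of -0.092 with an exact permutation p of 0.3 and an adjusted p of 0.45. Both ratios to Adarb2 were thus nominally lower in aged mice, by less than their tests could separate.

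Adar is made as a longer and a shorter protein, and in GRCm38 the annotation has several start sites for them. The transcript from the upstream start has a coding sequence of 2790 bases, while those from the downstream start include coding sequences of 3534 and 3456 bases. The longer protein, called p150, is known to be induced by interferon. A search of the RefSeq windows from 250 bases before to 50 after each start (GRCm38.p6) for GAAANNGAA, the core of an interferon-stimulated response element, on both strands found it in 1 of 3 Adar windows, that of the downstream start, and in none of Adarb1 or Adarb2. With a further A required after these letters, none of the members' windows held a match, against 3.44% of all windows. The downstream Adar window held 2 matches of the shorter form, 1 at its upstream edge and 1 after the start. The stretch with the second, in capitals, is shown because it lies closest to the start of the transcripts with the longer coding sequences, at chr3:89730738-89730767 on the plus strand.
Adar downstream start: ttttcaaggaaacGAAAGTGAActctgggg
The same letters occurred in 8.56% of 32851 such windows. The deposited values are for whole genes, so p150 and the shorter p110 cannot be told apart in them.

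Interferon-stimulated genes were therefore set beside Adar. Of 22 listed genes 21 were measured, and 2 were higher in aged mice (limma, FDR 0.05) while none was lower. Usp18, which removes the ubiquitin-like ISG15 from proteins and damps interferon signalling, had 1.45, 1.82 and 1.70 CPM in the aged libraries and 0.722, 0.522 and 0.325 CPM in the young libraries, a log2 fold change of 1.502 (SE 0.35, adjusted p = 0.039 in limma). Ifit3, an antiviral protein, had 10.4, 11.23 and 10.97 CPM in the aged libraries and 8.07, 7.18 and 6.56 CPM in the young libraries, a log2 fold change of 0.57 (SE 0.13, adjusted p = 0.039). Ddx60 came next at a log2 fold change of 1.30 with an adjusted p of 0.051. An unadjusted p under 0.05 in limma was reached by 7 of the 21. The median over the list was 0.36, against 0.0049 over all genes, with 19 positive and 2 negative log2 fold changes and 9 genes whose ages did not overlap, set against 27.2% of all genes. A fit with age alone, leaving out the removed factor, called 5 of the 21 higher. The count was 0 with the mean of aged replicates 2 and 3 as 1 sample, and 0 with a constant prior variance in limma. It was also 0 with the mean level of 5 choroid plexus markers as a covariate in place of the removed factor. The other fits that kept all 6 libraries as separate samples gave 2 or 3. These counts were sensitive to single mice, as Usp18 and Ifit3 each missed FDR 0.05 when any 1 of the 6 libraries was left out (adjusted p 0.053 to 0.42 for Usp18 and 0.06 to 0.38 for Ifit3). Most listed genes were of low abundance, with a sum of 170.7 to 180.4 CPM over the list in the aged libraries and 147.5 to 165.4 CPM in the young libraries.

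Genes of double-stranded RNA sensing, a response that ADAR1 limits, were measured for 15 of 22 listed symbols, of which Ddx58 (measured) and Rigi name the same gene. Besides sensors, the list holds genes of their signalling and cofactors, such as Mavs, Irf3 and Prkra. None passed FDR 0.05 in limma and 3 had an unadjusted p under 0.05, namely Oasl2 (log2 fold change 0.66, adjusted p = 0.13), Ifih1, which encodes the sensor MDA5 (0.54, adjusted p = 0.21), and Oas2 (1.005, adjusted p = 0.22). Ifih1 had 4.59, 5.13 and 4.46 CPM in the aged libraries and 4.003, 2.61 and 3.12 CPM in the young libraries. The median was 0.14, with 13 positive and 2 negative values. Eif2ak2, which encodes the kinase PKR, had a log2 fold change of 0.22 with an adjusted p of 0.56.

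**Figure D4:**
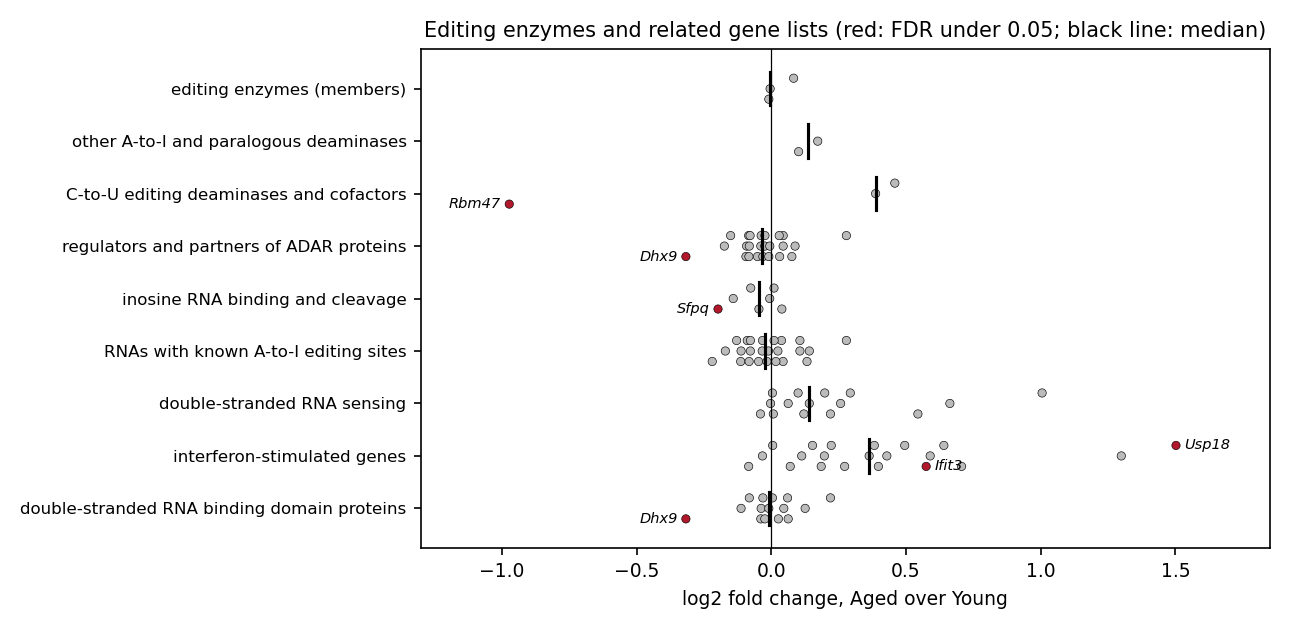
Log2 fold change, aged over young (horizontal axis), of the 3 members and of each measured gene of 8 related lists (rows), with a black line at the median of a row and genes past FDR 0.05 in red with their names. The members lie close to 0, Dhx9, Sfpq and Rbm47 are lower in aged mice, and Usp18 and Ifit3 are higher.

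Among 24 regulators and partners of the ADAR proteins, all measured, none was higher and 1 was lower in aged mice. Dhx9, an RNA helicase that unwinds double-stranded RNA and binds ADAR1, had 110.8, 105.7 and 108.3 CPM in the aged libraries, against 136.5, 139.7 and 128.7 CPM in the young libraries. Every aged value was below every young value, and the log2 fold change was -0.32 (SE 0.051, adjusted p = 0.0043 in limma). The call was lost without aged replicate 3 (adjusted p = 0.099) and without young replicate 1 (adjusted p = 0.051). Next in order of p came Nova1, a neuronal splicing factor (0.28, adjusted p = 0.11), Zfr2 (-0.17, adjusted p = 0.21) and Tardbp (-0.15, adjusted p = 0.30). The median was -0.035, with 7 positive and 17 negative values, and 2 genes were lower at FDR 0.05 without young replicate 3. The ages did not overlap in 7 of the 24 genes, which is near the 27.2% of all genes.

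Wwp2, a ubiquitin ligase that marks ADAR2 for degradation, had 37.5, 38.7 and 39.2 CPM in the aged libraries and 40.6, 41.3 and 35.7 CPM in the young libraries, with an adjusted p of 0.92. Aimp2, which lowers both ADAR1 and ADAR2 protein, had a log2 fold change of -0.079 with an adjusted p of 0.80. These genes, which act on ADAR protein, were named for that role after their values were seen.

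Of 15 other genes for proteins with a double-stranded RNA binding domain, Dhx9 was again the only one past FDR 0.05, and the median was -0.0094. Dhx9 and several others stand in more than 1 list.

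Proteins that bind or cut inosine-containing RNA were all measured, 7 of 7, and 1 was lower in aged mice. Sfpq, a nuclear partner of Nono and Matr3 in a complex that holds edited RNA, had 140.5, 130.3 and 133.6 CPM in the aged libraries and 154.3, 156.0 and 153.3 CPM in the young libraries (log2 fold change -0.20, SE 0.048, adjusted p = 0.045 in limma). It missed FDR 0.05 without any 1 of the 6 libraries (adjusted p 0.067 to 0.48). Nono had a log2 fold change of -0.077 (adjusted p = 0.53) and Matr3 one of 0.0099 (adjusted p = 0.95). Endov, the endonuclease that cuts at inosine, had 41.6, 44.7 and 42.5 CPM in the aged libraries and 41.9, 39.2 and 44.2 CPM in the young libraries, with an adjusted p of 0.85. The median was -0.046, with 2 positive and 5 negative values.

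The RNAs that the enzymes are known to edit were measured for 24 of 24 genes. None passed FDR 0.05 in limma, and 3 (Nova1, Gria2 and Son) had an unadjusted p under 0.05. Without young replicate 2, 1 gene was lower at FDR 0.05. The codon that Adarb1's enzyme recodes in Gria2, CAG in the genome and in unedited RNA, is shown in capitals with its surroundings from the GENCODE M21 transcript, where Gria2 lies on the minus strand of chromosome 3 and the codon is number 607.
Gria2: ggtgcctttatgCAGcaaggatgcgatatt
Gria2 had 685.7, 635.5 and 665.4 CPM in the aged libraries, against 730.1, 761.5 and 681.9 CPM in the young libraries. The aged values were lower apart from an overlap of aged replicate 1 with young replicate 3, and the log2 fold change of -0.13 (SE 0.046) had an adjusted p of 0.19. Son had a log2 fold change of -0.11 with an adjusted p of 0.29. Over the list, fold changes on the log2 scale ran from -0.22, in Htr2c, a serotonin receptor edited at several sites, to 0.28, in Nova1, and the median was -0.024 with 10 positive and 14 negative values. The 12 markers of excitatory hippocampal neurons, which express Gria2, had a median of -0.090 with 11 negative values and none past FDR 0.05 in limma, while 2 had an unadjusted p under 0.05. The 3 of smallest p were Slc17a7 (log2 fold change -0.093, adjusted p = 0.27), Neurod6 (-0.11, adjusted p = 0.32) and Wfs1 (-0.16, adjusted p = 0.36). Their summed level over the list was 7955 to 8108 CPM in aged libraries and 8081 to 8552 CPM in young libraries, and whether it bears on the values of Gria2 was not tested.

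Other deaminases gave fewer genes. Adat1 and Adat2, which make inosine in transfer RNA, were the 2 measured of 5 listed, with log2 fold changes of 0.10 (adjusted p = 0.79) and 0.17 (adjusted p = 0.71). Of 6 listed genes of the cytosine-to-uracil editing system 3 were measured. Rbm47, an RNA binding cofactor of that system, was lower in aged mice, with 2.58, 1.94 and 1.995 CPM in the aged libraries and 3.68, 3.98 and 5.59 CPM in the young libraries (log2 fold change -0.97, SE 0.23, adjusted p = 0.040 in limma). Its call held without young replicate 2 and was lost without any other single library (adjusted p up to 0.52). Apobec1, the deaminase it assists, had a log2 fold change of 0.46 (adjusted p = 0.38) and Apobec3 one of 0.39 (adjusted p = 0.37).

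Adarb2 is known in forebrain as a marker of interneurons born in the caudal ganglionic eminence, while Adar and Adarb1 are expressed by many cell types. The 14 markers of these interneurons summed to 811.9 to 820.5 CPM in the aged libraries and 788.0 to 831.3 CPM in the young libraries, and their median log2 fold change was 0.026, against 0.083 for Adarb2. Among them 2 were higher and 1 was lower in aged mice. An unadjusted p under 0.05 in limma was reached by 6 of the 14, in both directions. The ages did not overlap in 6 of them, set against 27.2% of all genes. Cxcl14, a chemokine, had 102.4, 103.6 and 102.5 CPM in the aged libraries and 83.3, 78.5 and 80.5 CPM in the young libraries (log2 fold change 0.35, SE 0.051, adjusted p = 0.0023 in limma). Sncg, a synuclein, had a log2 fold change of 0.95 (adjusted p = 0.019) and Ndnf, a secreted protein of neurogliaform cells, one of -0.40 (adjusted p = 0.044). Leaving out a library ended the call of Cxcl14 once (aged replicate 3, adjusted p = 0.053), that of Sncg with each aged library (adjusted p up to 0.13) and that of Ndnf with every library but young replicate 2 (adjusted p up to 0.51).

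The 11 measured markers of interneurons from the medial ganglionic eminence, the other main source, had 2 higher and none lower. An unadjusted p under 0.05 in limma was reached by 4 of the 11, and the ages did not overlap in 5. Sst, the neuropeptide somatostatin, had 255.0, 269.6 and 261.1 CPM in the aged libraries and 213.0, 200.6 and 216.9 CPM in the young libraries (log2 fold change 0.32, SE 0.046, adjusted p = 0.0018 in limma), and stayed past FDR 0.05 without any 1 library. Npy, another neuropeptide, had a log2 fold change of 0.32 (adjusted p = 0.024), and its call held without young replicate 2 and was lost without any other single library (adjusted p up to 0.31). The 12 markers of interneurons in general had a median of 0.0038, with none past FDR 0.05 in limma and 0 at an unadjusted p under 0.05. Their defining genes Gad1 and Gad2, the enzymes that make GABA, had log2 fold changes of 0.087 (adjusted p = 0.40) and 0.12 (adjusted p = 0.47), and Dlx2, a homeobox factor of these cells, one of 0.26 (adjusted p = 0.49).

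Markers of other cells that the dissected tissue could hold were counted in the same way. Of 12 microglial markers 7 were higher in aged mice (among them C1qa, C1qb, C1qc, Cx3cr1, Trem2 and Tmem119), with a sum of 558.2 to 579.4 CPM in the aged libraries and 429.4 to 445.6 CPM in the young libraries. Of 12 astrocyte markers 2 were higher (S100b and Gfap), of 12 oligodendrocyte markers 1 was higher (Mobp), and of 12 markers of oligodendrocyte precursors 2 were lower (Gpr17 and Tnr). Of 12 markers of meningeal fibroblasts 2 were lower (Col3a1 and Col1a2). An unadjusted p under 0.05 in limma was reached by 12 microglial, 3 astrocyte, 7 oligodendrocyte, 5 precursor and 4 meningeal markers. Single libraries moved the counts at FDR 0.05. Without aged replicate 3 there were 3 higher microglial markers and 6 lower meningeal markers (median log2 fold change -1.31). No meningeal marker was lower without aged replicate 1 (median 0.11), young replicate 1 or young replicate 2, and 1 was lower without aged replicate 2. Of the oligodendrocyte markers 4 were higher without aged replicate 2, 2 without young replicate 2, and none without aged replicate 1 or young replicate 1. Of the precursor markers 1 was lower without aged replicate 1, aged replicate 2, young replicate 2 or young replicate 3. The 12 endothelial markers and the 9 measured markers of thalamus and habenula had none past FDR 0.05 in limma, with 3 endothelial markers and 0 thalamic markers at an unadjusted p under 0.05. The endothelial markers of smallest p were Ly6c1 (log2 fold change 0.25, adjusted p = 0.24), Ocln (-0.26, adjusted p = 0.26) and Pecam1 (0.21, adjusted p = 0.32), and the thalamic ones Ramp3 (0.31, adjusted p = 0.44), Tcf7l2 (0.27, adjusted p = 0.52) and Tnnt1 (-0.23, adjusted p = 0.80). With the mean level of 5 choroid plexus markers as a covariate in place of a term for the removed factor, so that 2 choices changed together, the log2 fold change was -0.097 for Adar (adjusted p = 0.27 in limma, the only member of an unadjusted p under 0.05 in that fit), -0.087 for Adarb1 and -0.074 for Adarb2, the opposite sign to its value of 0.083.

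The genes whose log2 CPM followed each member most closely over the 6 libraries were sought among 15445 other genes of at least 1 CPM, as a description. For Adar they were Ddx24 (Pearson r = 0.996), Oxnad1 (0.995), Gja4 (0.994), Vps16 (0.993) and Gm42528 (0.992). For Adarb1 they were Plxnc1 (Pearson r = 0.996), Rasip1 (0.995), Mien1 (0.994), Txlna (0.993) and Rab11fip3 (0.993). For Adarb2 they were Pkd2 (Pearson r = 0.999), Mpst (0.997), Heyl (0.996), Pcbd2 (0.994) and 2610027K06Rik (0.994). With 6 libraries that share 1 removed factor, 203, 275 and 245 genes had an r above 0.9 with Adar, Adarb1 and Adarb2, so many genes follow any one pattern this closely. The members followed each other less closely, at a Pearson r of 0.491 for Adar and Adarb1, 0.681 for Adar and Adarb2 and 0.268 for Adarb1 and Adarb2.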

How the data were processed

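Hippocampal RNA of 3 aged and 3 young mice, grouped by the sample labels, was sequenced from poly(A)-selected, strand-marking libraries. In the processing notes of the submitters stand STAR 2.7.8a, Trim Galore 0.6.6, edgeR 3.32.1, R 4.05 and the build mm39, and the extended methods also name Trimmomatic and the removal of unwanted variation (RUV). The authors deposited log2 CPM for each library and gene, after a filter on low expression whose rule is not given in the sources used here. Columns of the authors' own comparison (log2 average and fold change, a likelihood ratio score, p-value and FDR) were not used. Undone to linear scale, the log2 CPM values gave counts that were whole to within 5.9e-09, and 1 direction of the log counts over the 6 libraries varied no more than rounding allows (0.986 times, 1791 genes), so the counts are adjusted and hold no depth. No counting interval was computed.

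limma 3.58.1 (R 4.3.3, trended prior variance) was fitted to the deposited log2 CPM of all 16703 genes with terms for age and for that direction, at 3 residual degrees of freedom and 12.3 from the prior. P-values were two-sided and adjusted by Benjamini-Hochberg over all genes. CPM in the text are computed from adjusted counts. Exact permutation tests used all 20 splits. The steps were tested on simulated data. In 20 simulations of aged against young over 16703 genes, 68.6% of genes changed by 1.5-fold were recovered, 95.7% by 2-fold and 100% by 4-fold, with 3.88% false calls. The simulated replicates were independent and every gene had the same dispersion, and genes of low count were not among those changed. The real libraries differ from this, aged replicates 2 and 3 above all, so these shares are not error rates of the real calls. The members and the 20 gene lists were chosen with earlier results of these data known. From each list the text names every gene past FDR 0.05, or else up to 3 of smallest p, and for each member the 5 genes of highest r. Others are marked or given for their role. Exon lengths and sequences came from GENCODE M21 and RefSeq (GRCm38), matched by symbol for all 3 members, while the values use mm39. Alternatives were the removed direction, scale, scaling, low filter, variance trend, replicate block, aged replicates 2 and 3 as 1 sample, each library left out and a choroid plexus covariate in place of the removed direction. Some items of the lists are not reported here.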

Additional observations from a re-analysis of the deposited data

How the results depend on the processing

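No member passed FDR 0.05 in any of the 21 alternatives (lowest adjusted p 0.274 for Adar, 0.584 for Adarb1 and 0.286 for Adarb2), and no 95% interval reached 1.5-fold. The sign of these small values was not stable. Leaving out 1 replicate gave log2 fold changes from -0.0606 to 0.0321 for Adar, from -0.0589 to 0.0345 for Adarb1 and from -0.0757 to 0.142 for Adarb2. Adar turned positive without aged replicate 1 (0.0321, or 0.0295 without the removed direction) and stood at 0 without young replicate 1 (5.46e-05 and 1.38e-06). Adarb1 turned positive without aged replicate 1 (0.0260 and 0.0235) and without young replicate 3 (0.0345 and 0.0341). Adarb2 turned negative without aged replicate 3 (-0.0757, but 0.0600 without the removed direction) and with the choroid plexus covariate in place of the removed direction (-0.0741), a fit in which 2 choices change together. The cause was not tested.

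Counts over all genes moved more than the members did. Of 200 genes higher and 131 lower, there were 319 and 204 without the removed direction, 0 and 0 with a constant prior variance (1881 genes at an unadjusted p under 0.05), and 0 and 1 with the choroid plexus covariate in place of the removed direction (2915 genes). With the mean of aged replicates 2 and 3 as 1 sample, 86 genes were lower. In that fit Sfpq (adjusted p = 0.084 in limma), Rbm47 (0.072), Usp18 (0.076) and Ifit3 (0.068) missed FDR 0.05. Leaving out 1 replicate gave 59 to 184 higher and 22 to 116 lower, or 99 to 263 and 51 to 159 without the removed direction (125, 99 and 113 higher without aged replicates 1 and 3 and young replicate 1, and 61 and 51 lower without aged replicate 3 and young replicate 1). Dhx9, Sfpq, Rbm47, Usp18, Ifit3, Cxcl14, Sncg, Ndnf, Sst and Npy all missed FDR 0.05 with a constant prior variance and with the choroid plexus covariate in place of the removed direction, and kept their direction in all 21 alternatives.

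Deviations from the group means of same-numbered aged and young libraries correlated at 0.109, -0.209 and -0.415. Those of aged replicate 3 and young replicate 2 correlated at 0.836. The removed direction ties the deviations of the libraries to each other, so these correlations cannot show whether the replicate numbers pair the mice. With the replicate block, the log2 fold changes were -0.0035 for Adar, -0.0111 for Adarb1 and 0.0846 for Adarb2, with 226 genes higher and 163 lower, and without the removed direction the replicate block gave 286 and 224. Sfpq missed FDR 0.05 under the replicate block (adjusted p = 0.051). Depth is not known from these values, so what it limits could not be computed, and editing levels and Adar isoforms were not analysed here.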
